A study of Mus musculus with 10 samples.

Results

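B cells and the plasma cells they give rise to were followed in the lung of newborn ICR mice, an outbred stock, through a list of 37 gene names. The names stand for 36 genes, because Faim3 is an older symbol of Fcmr. A gene was represented by its brightest probe set with exactly 1 gene symbol and was kept where the log2 level reached 5 on at least 2 arrays; 31 genes were kept, out of 14989 kept on the array as a whole. Fcrla, Pou2af1, Tnfrsf17 and Pkib lay below that level, and Cd38 was not analysed here for want of a probe set of 1 symbol. All 10 arrays reached a log2 level of 5 for 23 of the 31 genes. Cr2, Fcer2a and Cxcr5 were kept only through the P29 room-air arrays, and Fcmr only through room-air arrays of both ages, so for these 4 genes a difference from room air was built into the filter. Their differences are given as values without a p, and the main counts over the 31 genes are given with and without them.

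The pups were pooled at birth and assigned at random to room air or to 80% oxygen (hyperoxia), and lungs were taken at postnatal day 14 (P14) or day 29 (P29), after exposure throughout. Such exposure models bronchopulmonary dysplasia, in which the lungs of infants born early stay poorly divided into alveoli. Room air was represented by 2 arrays at each age (labelled WT) and hyperoxia by 3 arrays at each age (labelled BPD). All 4 groups shared the strain and the daily exchange of nursing dams between chambers, and no allele was engineered in any of them. The labels do not say whether an array came from 1 animal, so p-values measure the spread between arrays, whatever its source.

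A B cell recognises antigen through its receptor, a membrane-bound antibody that signals through the paired chains Cd79a and Cd79b. Surface proteins such as Cd22 and Siglecg restrain that signal, while the chemokine receptors Cxcr5 and Ccr6 guide the cell into lymphoid tissue and mucosal surfaces. Survival depends on the cytokine BAFF, the product of Tnfsf13b, read through Tnfrsf13c and Tnfrsf13b. After activation a B cell can become a plasma cell, which secretes antibody; the joining chain Jchain links IgA or IgM units into polymers that the epithelial receptor Pigr carries onto mucosal surfaces. In mice the lymphoid tissue of the airways is sparse at birth and fills with age and exposure.

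RefSeq promoter windows of build GRCm38.p6, cut to the 250 bases before a start site, were found for 24 of the 31 genes, 29 windows in all. They were searched on both strands for the octamer ATGCAAAT, the site of the Oct factors that work with Pou2af1 in B cells, for TCCC and GGGA separated by any 2 bases, a site of Ebf1, and for GAGGAA, the core of the sites of PU.1 and its relative Spib. The octamer was in 1 window each of Blnk, Ccr6 and Vpreb3 (10.3% of the 29), against 1.6% of 32851 windows of the whole table (1 chromosome was left out). The Ebf1 site was in the window of Cd22, against 0.779% of all windows. GAGGAA was in 12 of the 29 windows (41.4%), those of Cd79a, Cd37 and Fcmr among them, and in 23.3% of all windows. The octamer windows and the Cd22 window are printed because they hold the rarer motifs, and that of Jchain because the gene moved most with age and holds none of the motifs. Each is written 5′ to 3′ on the gene's strand with the octamer (here in its reverse complement) or the Ebf1 site in capitals, with GAGGAA or its reverse complement also in capitals.
Blnk (chr19:40994222-40994471, minus strand): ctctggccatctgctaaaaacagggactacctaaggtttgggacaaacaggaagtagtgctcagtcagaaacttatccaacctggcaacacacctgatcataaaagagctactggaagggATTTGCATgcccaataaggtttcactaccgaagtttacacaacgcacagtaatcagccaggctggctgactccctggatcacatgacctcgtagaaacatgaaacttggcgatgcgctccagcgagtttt
Ccr6 (chr17:8235793-8236042, plus strand): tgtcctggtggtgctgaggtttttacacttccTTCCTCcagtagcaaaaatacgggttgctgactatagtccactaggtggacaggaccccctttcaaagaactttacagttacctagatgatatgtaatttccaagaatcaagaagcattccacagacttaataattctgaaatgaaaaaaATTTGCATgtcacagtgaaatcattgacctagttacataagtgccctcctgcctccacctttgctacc
Vpreb3 (chr10:75948050-75948299, plus strand): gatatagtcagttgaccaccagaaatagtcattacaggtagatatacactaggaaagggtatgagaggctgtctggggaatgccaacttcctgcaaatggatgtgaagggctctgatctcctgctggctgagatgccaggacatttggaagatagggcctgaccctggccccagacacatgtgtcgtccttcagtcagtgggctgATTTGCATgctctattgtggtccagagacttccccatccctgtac
Cd22 (chr7:30879029-30879278, minus strand): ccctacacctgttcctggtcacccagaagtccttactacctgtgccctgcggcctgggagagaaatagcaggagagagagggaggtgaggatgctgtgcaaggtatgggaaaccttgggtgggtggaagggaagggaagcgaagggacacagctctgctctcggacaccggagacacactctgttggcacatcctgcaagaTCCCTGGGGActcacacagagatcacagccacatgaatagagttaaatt
Jchain (chr5:88527898-88528147, minus strand): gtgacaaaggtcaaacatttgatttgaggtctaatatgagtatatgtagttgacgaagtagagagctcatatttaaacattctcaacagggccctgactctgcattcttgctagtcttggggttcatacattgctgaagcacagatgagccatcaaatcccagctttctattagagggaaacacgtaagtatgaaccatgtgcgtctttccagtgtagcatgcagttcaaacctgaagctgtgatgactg
Of the windows with an octamer, those of Ccr6 and Vpreb3 belong to genes that were lower in hyperoxia at P29, and that of Blnk to a gene that was not called at that age. A match describes the letters of the window and was not tested as a binding site.

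Some differences between the arrays run beside every result below. The actin probe sets at the 3′ end exceeded those at the 5′ end by 1.33 to 2.21 on the log2 scale on the hyperoxia arrays and by 0.32 to 0.74 on the room-air arrays; a larger gap is a sign of shorter RNA or shorter labelled product. Xist, which is transcribed from the inactive X chromosome of females, was at 6.63 to 6.99 on all P14 arrays and at 12.48 and 12.66 on the P29 room-air arrays. On the P29 hyperoxia arrays Xist was at 7.12, 12.54 and 11.94, and the third array also had Y-linked genes at a mean of 7.71. Room air at P29 was therefore represented by female RNA only, and age and sex cannot be told apart in room air. The part of RNA length in the results was looked at only by a fit with the actin gap as a term. That of sex was looked at by a fit with the Y-linked level and by the female P29 hyperoxia array alone. The actin gaps of the 2 gases did not overlap, so the fit with that term cannot tell RNA length from gas. A call lost with the term does not show which of them was at work. All 8 epithelial markers of a fixed list passed the filter on these lung arrays.

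At P29 most of the B and plasma cell genes were lower in hyperoxia, receptor chains and antibody genes alike. By limma with Benjamini-Hochberg adjustment over 14989 genes, 24 of the 31 genes were lower (77.4%, where 25.5% of all genes tested were lower), 2 were higher (6.45% against 34.2%) and 5 were not called. The fall was at least 2-fold for 15 of the 24, Fcer2a and Fcmr included. The median difference over the 31 genes was -0.98 on the log2 scale, against 0.04 over all genes. Without the 4 genes that passed the filter through room air alone, 20 of 27 were lower (median -0.86), and of the 23 genes that reached the filter level on all 10 arrays 16 were lower (median -0.76). At P14 the change was smaller: 12 genes were lower (38.7%, background 22.8%), 3 were higher (9.68%, background 32.3%) and 16 were not called, with a median of -0.28 against 0.04. Without the same 4 genes 11 of 27 were lower and 3 higher at P14. With the actin gap as a term 5 genes were lower at P14 and 17 at P29, where all genes called lower came to 578 and 1277. The calls lost with that term at P29 were those of Fcer2a, Fcrl1, Blk, Pax5, Tnfrsf13c, Siglecg and Irf4. At P14 they were those of Ms4a1, Cd22, Tnfrsf13b, Siglecg, Igkv8-30, Prdm1 and Sdc1. After 75th percentile scaling 18 were lower and 2 higher at P14. The largest falls at P29 were those of Igkv8-30, 14.2-fold, and Jchain, 8.77-fold, an antibody light chain segment and the antibody joining chain. On the P29 hyperoxia arrays Igkv8-30 was at 5.12 to 5.78 and Jchain at 5.22 to 5.70. These values are near the filter level of 5, so the size of both folds is uncertain. In lung RNA, fewer cells of a type and less RNA per cell cannot be told apart.

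**Figure D1:**
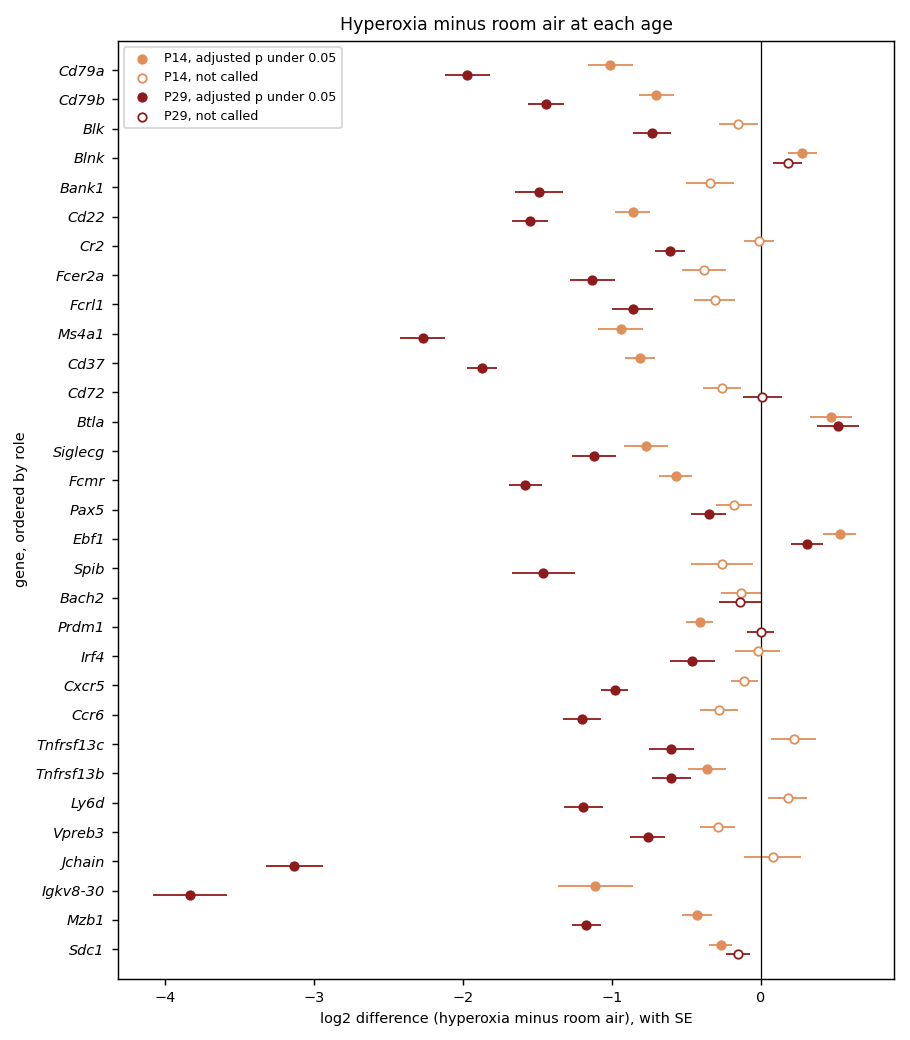
Log2 difference between hyperoxia and room air for each of the 31 genes at P14 (orange) and P29 (dark red); bars are the SE of the fitted contrast, filled points passed an adjusted p of 0.05, and genes are ordered by role from receptor to antibody secretion. The P29 points of 24 genes are filled on the left of 0, reaching -3.83 for Igkv8-30, and those of Btla and Ebf1 lie to the right.

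The chains that carry the receptor signal fell at both ages. Cd79a was at 6.64 and 6.21 on the P14 room-air arrays and at 5.22, 5.42 and 5.61 on the P14 hyperoxia arrays, then at 7.18 and 7.53 in room air and 5.40, 5.50 and 5.25 in hyperoxia at P29. The hyperoxia arrays lay below the room-air arrays of their own age without overlap, and the P29 hyperoxia arrays were at the level of the P14 hyperoxia arrays. The difference was -1.01 (SE 0.15, limma adjusted p = 0.000303) at P14 and -1.97 (SE 0.15, adjusted p = 2.36e-06) at P29, a 3.91-fold fall. Cd79b was at 7.44 and 7.53 against 6.61, 6.92 and 6.82 at P14, and at 7.64 and 7.95 against 6.33, 6.46 and 6.27 at P29. It fell by 0.70 (SE 0.12, adjusted p = 0.00051) and by 1.44 (SE 0.12, adjusted p = 2.94e-06), again with no overlap at either age.

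Downstream of these chains the genes divided. Blk, a Src family kinase of the receptor, fell by 0.73 (SE 0.13, adjusted p = 0.0008) at P29 and differed by -0.15 (SE 0.13, adjusted p = 0.356) at P14. With the actin gap as a term the P29 difference of Blk was -0.50 (limma adjusted p = 0.245). Bank1, a scaffold that joins the receptor to calcium release, fell by 1.49 (SE 0.16, adjusted p = 2.11e-05) at P29. Bank1 was at 6.92 and 7.55 in room air and at 5.77, 5.60 and 5.86 in hyperoxia at that age. Blnk, the adaptor that links the receptor to phospholipase C, did not follow: it was at 6.49 and 6.48 against 6.68, 6.89 and 6.72 at P14, a rise of 0.28 (SE 0.10, adjusted p = 0.0332), and at 7.32 and 7.28 against 7.42, 7.64 and 7.37 at P29, a difference of 0.18 (SE 0.10, adjusted p = 0.132). The P14 rise of Blnk was lost without either P14 room-air array (adjusted p = 0.104 and 0.103). Macrophages also express Blnk.

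Of the 10 surface co-receptors and inhibitory receptors, 8 were lower at P29 (25.5% of all genes were), with a median of -1.12 over the 10; Cr2, Fcer2a and Fcmr are among the 8. Ms4a1, the gene of CD20, was at 6.94 and 6.99 in room air and at 6.18, 6.04 and 5.84 in hyperoxia at P14. At P29 it was at 7.55 and 8.10 in room air and at 5.65, 5.45 and 5.58 in hyperoxia. The gap between the gases thus widened from both sides, from -0.94 (SE 0.15, adjusted p = 0.000363) to -2.27 (SE 0.15, adjusted p = 7.56e-07), a 4.81-fold fall. With the actin gap as a term the P14 difference of Ms4a1 was -0.68 (adjusted p = 0.211). Cd37, a tetraspanin of B and other immune cells, was at 6.78 on both P14 room-air arrays and at 7.85 and 7.99 at P29, while all 6 hyperoxia arrays lay between 5.77 and 6.10. Its difference was -0.81 (SE 0.10, adjusted p = 7.5e-05) at P14 and -1.87 (SE 0.10, adjusted p = 2.36e-07) at P29.

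Receptors that restrain B cell activation were among those that fell. Cd22, a lectin that recruits phosphatases to the receptor, was at 7.12 and 7.04 against 6.11, 6.35 and 6.21 at P14 and at 7.82 and 8.07 against 6.36, 6.24 and 6.57 at P29. The groups did not overlap at either age, and Cd22 fell by 0.86 (SE 0.12, adjusted p = 0.000134) and by 1.55 (SE 0.12, adjusted p = 1.64e-06). Siglecg, a related lectin, fell by 0.77 (SE 0.15) at P14 and by 1.12 (SE 0.15, adjusted p = 9.93e-05) at P29. With the actin gap as a term Siglecg was at -0.74 (limma adjusted p = 0.2) at P14 and -1.09 (0.0506) at P29. The P14 difference of Cd22 with that term was -0.96 (limma adjusted p = 0.0521). Fcmr, the receptor for IgM, differed by -0.57 (SE 0.11) and by -1.58 (SE 0.11); its levels were 5.45 and 5.48 against 4.92, 4.77 and 4.99 at P14 and 6.10 and 6.41 against 4.57, 4.71 and 4.75 at P29, so that only room-air arrays reached the filter level and the direction was set by the filter.

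Markers of resting mature B cells were dim and differed at P29. Cr2, the complement receptor CD21, was at 5.12 and 5.10 in P29 room air and between 4.32 and 4.61 on the other 8 arrays. Fcer2a, the low-affinity IgE receptor CD23, was at 5.76 and 5.75 against 4.88, 4.36 and 4.62 at P29. The P29 differences were -0.61 (SE 0.10) for Cr2 and -1.13 (SE 0.15) for Fcer2a, both genes that entered the test through the P29 room-air arrays. Fcrl1, an Fc receptor-like protein that supports receptor signalling, fell by 0.86 (SE 0.14) at P29 from 6.43 and 6.39. With the actin gap as a term the difference of Fcrl1 was -0.62 (limma adjusted p = 0.182).

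Btla and Cd72 stood apart within the same role. Btla, an inhibitory receptor shared with T cells, was at 6.33 and 6.38 against 6.69, 6.90 and 6.88 at P14, and at 7.60 and 7.86 against 8.05, 8.55 and 8.16 at P29. It was higher by 0.47 (SE 0.14, adjusted p = 0.0148) and 0.52 (SE 0.14, adjusted p = 0.00796), with no overlap of the gases at either age. The P14 call of Btla was lost without either room-air array (adjusted p = 0.0834 and 0.05), and the P29 call without room-air array 1 (0.39, adjusted p = 0.0865); with the actin gap as a term the differences were 0.15 and 0.22 and neither was called. Cd72, an inhibitory lectin, was at 6.05 and 6.27 in room air and at 6.32, 6.13 and 6.05 in hyperoxia at P29, a difference of 0.01 (SE 0.13, adjusted p = 0.973). At P14 Cd72 differed by -0.26 (SE 0.13, adjusted p = 0.0992).

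**Figure D2:**
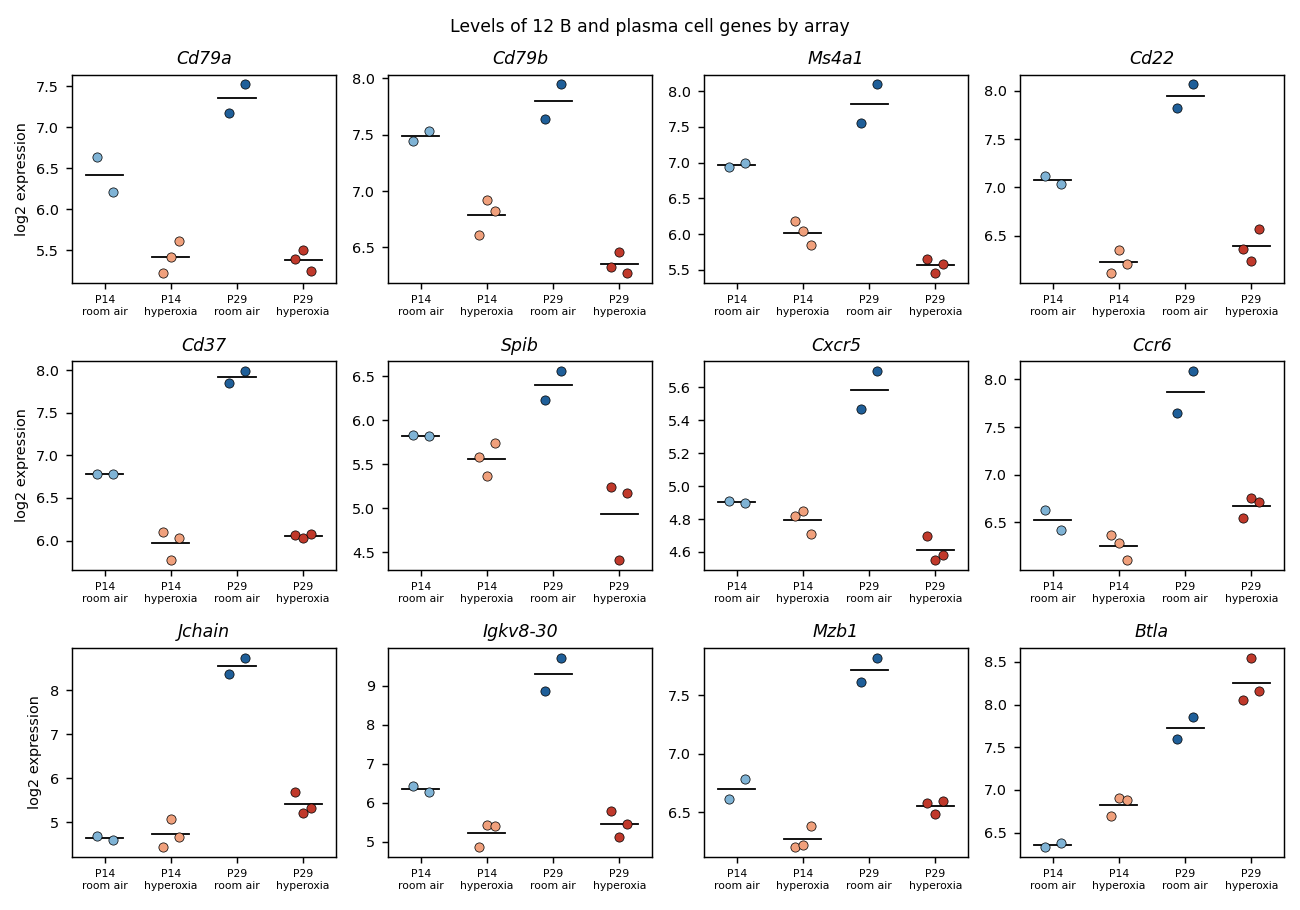
Log2 level of 12 genes on each of the 10 arrays, grouped by age and gas, with a bar at the group mean; each panel has its own axis, which does not start at 0. In the panels of Cd79a, Cd79b, Ms4a1, Cd22 and Cd37 hyperoxia lies below room air at both ages; Jchain and Igkv8-30 stand out on the P29 room-air arrays, at 8.36 to 9.71; Btla runs the other way.

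Transcription factors of the lineage were called in both directions. Of the 6 kept, 3 were lower at P29, 1 was higher and 2 were not called, with a median of -0.25. Over all genes 25.5% were lower and 34.2% higher at that age. Spib, an ETS factor of mature B cells and of plasmacytoid dendritic cells, was at 6.23 and 6.56 against 5.24, 4.41 and 5.17 at P29. It fell by 1.46 (SE 0.21, adjusted p = 0.000174) there and differed by -0.26 (SE 0.21, adjusted p = 0.317) at P14. Pax5, which fixes B cell identity, fell by 0.35 (SE 0.12, adjusted p = 0.024) at P29, from 5.79 and 5.82 to 5.52, 5.60 and 5.23. That call was lost without either room-air array (adjusted p = 0.0764 and 0.0994) or without hyperoxia array 3 (0.0769).

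Irf4, which drives plasma cell formation and acts in other immune cells too, was at 6.17 and 6.15 against 5.65, 5.40 and 6.03 at P29 and fell by 0.46 (SE 0.15, adjusted p = 0.0225). Leaving out either room-air array or hyperoxia array 1 or 2 ended that call, at adjusted p from 0.0529 to 0.0903. With the actin gap as a term Irf4 was at -0.78 (limma adjusted p = 0.121). Prdm1, which encodes Blimp-1 of plasma cells and of several lung cell types, fell by 0.41 (SE 0.09, adjusted p = 0.0033) at P14, from 8.34 and 8.58 to between 7.98 and 8.16 on the 3 hyperoxia arrays. The P14 difference was -0.34 (limma adjusted p = 0.31) with the actin gap as a term. At P29 Prdm1 was at 8.41 and 8.47 against 8.50, 8.39 and 8.45, a difference of 0.00 (SE 0.09). Bach2, which opposes plasma cell formation, was not called at P14 (-0.13, SE 0.14) or at P29 (-0.14, SE 0.14).

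Ebf1, the early B cell factor, is also made by lung mesenchyme, and it rose. Its P14 levels were 7.20 and 7.31 against 7.74, 7.70 and 7.91, a rise of 0.53 (SE 0.11, adjusted p = 0.00174) that was 0.18 (adjusted p = 0.611) with the actin gap as a term. At P29 Ebf1 was at 6.78 and 7.02 against 7.21, 7.08 and 7.34, a rise of 0.31 (SE 0.11, adjusted p = 0.0279). Its 5 probe sets did not move equally: the differences were 0.53, 1.43, 0.33, 0.32 and 0.00 at P14, and 0.31, 1.48, 0.26, 0.30 and -0.21 at P29, the last from a probe set that never exceeded 4.37. The P29 rise of Ebf1 was lost without room-air array 1 (0.19, adjusted p = 0.242), without hyperoxia array 1 or 3 (adjusted p = 0.0558 and 0.0899), and after scaling to the 75th percentile (0.18, adjusted p = 0.177); with the actin gap as a term it was -0.02. Mesenchyme markers were higher for 6 and lower for 2 of 9 genes at P29 (34.2% and 25.5% over all genes), and their part in the Ebf1 result was not tested.

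The 4 receptors for chemokines and survival factors that were kept were all called lower at P29 (25.5% of all genes were), with a median of -0.79, Cxcr5 among them through the filter. Ccr6 was at 7.65 and 8.09 against 6.54, 6.75 and 6.71 and fell by 1.20 (SE 0.13, adjusted p = 2.61e-05). Cxcr5 was at 5.47 and 5.70 against 4.70, 4.55 and 4.58, a difference of -0.98 (SE 0.09) that the filter built in. Neither was called at P14, where Ccr6 differed by -0.28 (SE 0.13) and Cxcr5 by -0.11 (SE 0.09). The BAFF receptor Tnfrsf13c fell by 0.60 (SE 0.15, adjusted p = 0.00537) at P29, a call lost without room-air array 2 (-0.42, adjusted p = 0.0701). That call was also lost with the actin gap as a term (-0.54, limma adjusted p = 0.271). Tnfrsf13b, the gene of TACI, which binds BAFF and APRIL, fell by 0.36 (SE 0.13, adjusted p = 0.0353) at P14 and by 0.60 (SE 0.13, adjusted p = 0.00233) at P29; the P14 call was lost without room-air array 1 or hyperoxia array 1 (adjusted p = 0.242 and 0.116).

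Of the ligands of these receptors, BAFF was higher at P29, where Tnfrsf13c and Tnfrsf13b were called lower. At P14 BAFF was higher too, while Tnfrsf13c was not called (0.22, SE 0.15). Tnfsf13b, the gene of BAFF, was at 5.74 and 5.40 against 6.59, 6.86 and 6.71 at P14. At P29 it was at 8.34 and 8.28 against 8.73, 8.65 and 8.64. It was higher in hyperoxia by 1.15 (SE 0.11, adjusted p = 1.69e-05) and by 0.36 (SE 0.11, adjusted p = 0.0148), with no overlap at either age. Cxcl13, the ligand of Cxcr5, was at 6.62 and 6.59 against 7.43, 7.60 and 7.48 at P14, a rise of 0.90 (SE 0.09, adjusted p = 2.63e-05), and differed by 0.21 (SE 0.09, adjusted p = 0.0651) at P29. Ccl20, the ligand of Ccr6, fell by 0.33 (SE 0.10, adjusted p = 0.0159) at P29. Tnfrsf14, the ligand of Btla, fell by 0.56 (SE 0.11) at P14 and by 0.70 (SE 0.11, adjusted p = 0.000238) at P29, opposite to its receptor.

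Ly6d and Vpreb3, which mark stages of B cell development, fell at P29 by 1.19 (SE 0.13, adjusted p = 2.09e-05) and by 0.76 (SE 0.12, adjusted p = 0.000295). Ly6d was at 6.52 and 6.51 in P29 room air and between 5.20 and 5.40 in hyperoxia, and at P14 its room-air arrays, at 5.70 and 5.40, overlapped the hyperoxia arrays, at 5.62, 5.97 and 5.60. Ly6d is also made by some epithelial cells.

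Jchain and Igkv8-30 had the largest differences of the 31 genes at P29. Jchain was at 4.69 and 4.60 in room air and at 4.44, 5.07 and 4.67 in hyperoxia at P14, all near or below the filter level and overlapping. At P29 Jchain was at 8.36 and 8.74 in room air and at 5.70, 5.22 and 5.32 in hyperoxia. The P29 difference was -3.13 (SE 0.19, adjusted p = 4.52e-07), while that at P14 was 0.08 (SE 0.19, adjusted p = 0.732). Igkv8-30, a kappa light chain variable segment, was at 6.43 and 6.28 against 4.87, 5.43 and 5.42 at P14 and at 8.86 and 9.71 against 5.78, 5.12 and 5.47 at P29. It fell by 1.11 (SE 0.25, adjusted p = 0.00357) and by 3.83 (SE 0.25, adjusted p = 7.99e-07); with the actin gap as a term the P14 difference was -1.71 (adjusted p = 0.0822). Its probe set is of the kind that can bind several similar segments, so the signal cannot be assigned to this segment alone.

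Mzb1, a chaperone of antibody assembly, was at 6.61 and 6.78 against 6.20, 6.22 and 6.38 at P14 and at 7.61 and 7.82 against 6.58, 6.48 and 6.59 at P29. It fell by 0.43 (SE 0.10, adjusted p = 0.00326) and by 1.17 (SE 0.10, adjusted p = 3.2e-06). Sdc1, the gene of syndecan-1 (CD138), marks plasma cells but is abundant on epithelium, and it was bright on all arrays, from 10.94 to 11.33. It fell by 0.27 (SE 0.08, adjusted p = 0.0195) at P14 and was not called at P29 (-0.15, SE 0.08, adjusted p = 0.152). Its 4 probe sets disagreed in direction, with differences of -0.27, 0.42, 0.61 and -0.86 at P14 and of -0.15, -0.05, 0.60 and -1.06 at P29, and the P14 call was lost without room-air array 2 or hyperoxia array 2 or 3 (adjusted p = 0.113, 0.0602 and 0.0565). Among the genes below the filter, Pou2af1, the octamer coactivator, was at 4.92 and 5.61 in P29 room air and at 3.71 to 3.80 in P29 hyperoxia, and Tnfrsf17, the plasma cell receptor BCMA, stayed between 4.45 and 5.07 on all arrays.

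**Figure D3:**
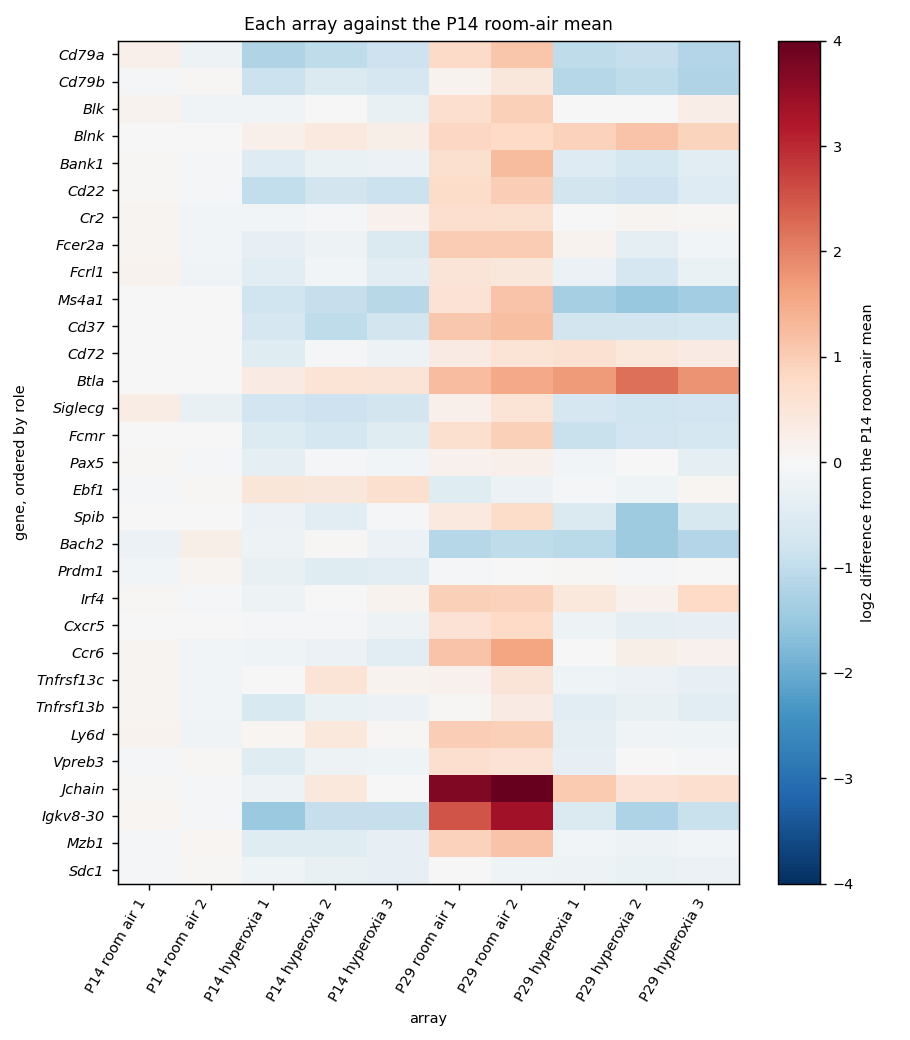
Level of the 31 genes (rows, ordered by role) on the 10 arrays (columns) as the log2 difference from the P14 room-air mean, red above and blue below it. The P29 room-air columns are red for most genes, most of all for Jchain and Igkv8-30; Btla, Blnk and Cd72 are red in both gases at P29, and Bach2 is blue in both.

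Antibody segments outside the 37 names moved in the same direction. Of the immunoglobulin genes, 8 were kept, Igkv8-30 included, and all 8 were lower at P29 and 3 at P14. Over all genes 25.5% were lower at P29 and 22.8% at P14. Igha, the constant region of IgA, had 3 probe sets, and the one used was at 6.82 and 6.86 against 6.41, 6.41 and 6.64 at P14 and at 10.06 and 9.64 against 6.97, 6.64 and 7.18 at P29. It was not called at P14 (-0.35, SE 0.16, adjusted p = 0.0766) and fell by 2.92 (SE 0.16, adjusted p = 2.49e-07) at P29; the other probe sets of Igha differed by -3.88 and -4.36 at P29 and by -0.45 and -0.26 at P14. Ighm, the constant region of IgM, was at 8.51 and 8.56 in P14 room air and at 9.45 and 10.43 in P29 room air, against 8.34, 8.17 and 8.11 in P29 hyperoxia, a fall of 1.73 (SE 0.23, adjusted p = 9.91e-05). Ighv14-2, a heavy chain variable segment, fell by 2.70 (SE 0.20, adjusted p = 1.54e-06), and Ighg3, an IgG constant region, by 0.79 (SE 0.13, adjusted p = 0.00037).

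In room air the programme rose between P14 and P29. Of the 31 genes, 21 were higher at P29 (67.7%, background 22.2%), 2 were lower (6.45%, background 19.1%) and 8 were not called, with a median of 0.79 against 0.01 over all genes; 7 rose at least 2-fold. Without the 4 genes kept through room air alone, 17 of 27 were higher (median 0.81). Jchain rose by 3.90 (SE 0.21, adjusted p = 1.92e-07) from a P14 level below the filter, where the log2 difference has little signal behind it and gives no firm fold, and Igkv8-30 by 2.93 (SE 0.28, adjusted p = 9.35e-06). Next were Btla at 1.38 (SE 0.15), Ccr6 at 1.35 (SE 0.15), Cd37 at 1.15 (SE 0.11), and Mzb1 at 1.02 (SE 0.11); Fcer2a differed by 1.02, with the filter deciding its direction. Bach2 fell by 1.09 (SE 0.16, adjusted p = 0.000208), from 8.96 and 9.40 to 8.04 and 8.15, and Ebf1 by 0.35 (SE 0.12, adjusted p = 0.0312), a call lost without P14 array 2 (adjusted p = 0.147) or P29 array 1 (0.215). The probe sets of Bach2 that were not used differed with age by -1.05 and 0.15 in room air, and by -1.17 and 0.00 in hyperoxia.

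In hyperoxia the same interval brought calls in both directions. Of the 31 genes, 8 were higher at P29 (25.8%, background 15.4%), 7 were lower (22.6%, background 11.7%) and 16 were not called, with a median of 0.03. Without the 4 genes kept through room air alone, 8 of 27 were higher and 7 lower. The rises were those of Btla (1.43, SE 0.13), Blnk (0.71, SE 0.09), Cd72 (0.71, SE 0.11), Jchain (0.69, SE 0.17), Irf4 (0.49, SE 0.14), Ccr6 (0.42, SE 0.12), Prdm1 (0.40, SE 0.08) and Mzb1 (0.28, SE 0.09). Those that fell were Bach2 by 1.09, Spib by 0.63, Ebf1 by 0.58, Tnfrsf13c by 0.48, Ms4a1 by 0.46, Cd79b by 0.43 and Ly6d by 0.40. Igkv8-30 differed by 0.22 (SE 0.23, adjusted p = 0.533), and Cd79a by -0.03 (SE 0.14, adjusted p = 0.905). The number lower was 4 without P14 hyperoxia array 2, and the number higher was 5 without P29 hyperoxia array 3. Single arrays decided several of these calls. Spib was at -0.36 (adjusted p = 0.0611) without P29 hyperoxia array 2 and was also lost without P14 hyperoxia array 1 or 3. The falls of Ms4a1, Tnfrsf13c and Ly6d were lost without P14 hyperoxia array 2, at adjusted p = 0.0644, 0.0738 and 0.0907, and each without at least 1 other array. The rises of Irf4, Ccr6 and Mzb1 were lost without P29 hyperoxia array 3, at adjusted p = 0.0633, 0.0676 and 0.0922, and each without at least 1 other array.

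**Figure D4:**
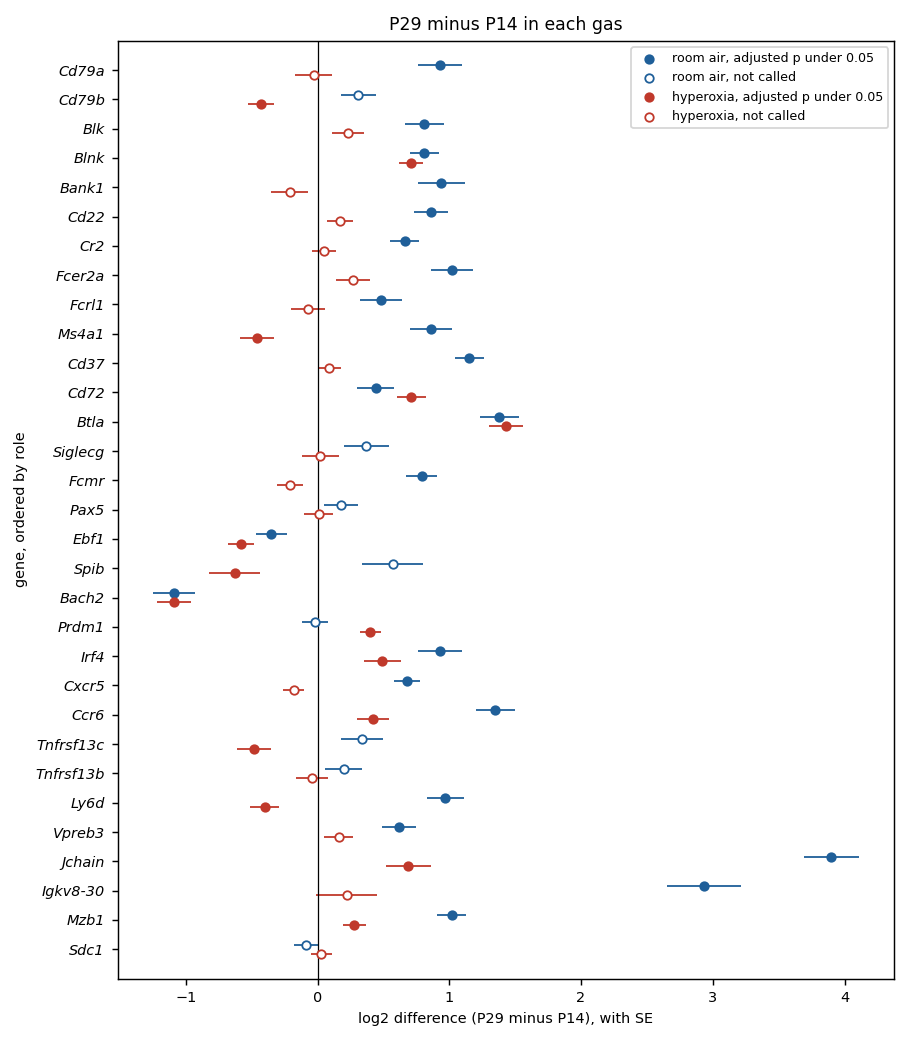
Log2 difference between P29 and P14 for each of the 31 genes in room air (blue) and in hyperoxia (red); bars are the SE of the fitted contrast and filled points passed an adjusted p of 0.05. Jchain and Igkv8-30 lie at 3.90 and 2.93 in room air and at 0.69 and 0.22 in hyperoxia, while the points of Btla, Blnk and Bach2 in the 2 gases lie close together.

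The difference between the hyperoxia effects at P29 and P14, which is also the difference between the age changes in hyperoxia and in room air, was tested directly. It was below 0 for 18 of the 31 genes (58.1%, background 11.6%), above 0 for 1 (3.23%, background 11.0%) and not called for 12; without the 4 genes kept through room air alone it was below 0 for 14 of 27. The extremes were Jchain at -3.21 (SE 0.27, adjusted p = 2.43e-05) and Igkv8-30 at -2.72 (SE 0.36, adjusted p = 0.000395), followed by Ly6d at -1.37 (SE 0.18), Ms4a1 at -1.32 (SE 0.21) and Spib at -1.20 (SE 0.30). Igha, which is not among the 31, had a difference of -2.57 (SE 0.22, adjusted p = 3.35e-05). For Btla it was 0.05 (SE 0.20, adjusted p = 0.891), for Blnk -0.10 (SE 0.14, adjusted p = 0.681) and for Siglecg -0.35 (SE 0.21, adjusted p = 0.281). Without P14 room-air array 1 the value of Siglecg was -0.64 and was called (adjusted p = 0.0204). The call of Blk (-0.58, adjusted p = 0.049) was lost in 6 of the 10 fits that left out an array, at adjusted p from 0.0866 to 0.184. Those of Spib and Tnfrsf13c were lost without room-air array 2 of either age (adjusted p from 0.0547 to 0.0764). Prdm1 had the single call above 0, 0.41 (SE 0.13, adjusted p = 0.0418), which was lost in 7 of the 10 fits that left out an array, at adjusted p from 0.0733 to 0.149.

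Genes that support B cells in the tissue were called in both directions. Of 25 on a list of ligands and niche genes, 16 were kept, and 4 were higher and 7 lower at P29 (7 and 4 at P14), where 34.2% of all genes were higher and 25.5% lower at P29 (32.3% and 22.8% at P14). Il6, a cytokine of plasma cell differentiation among much else, was at 3.77 and 3.54 in P29 room air and at 6.87, 6.42 and 6.59 in P29 hyperoxia. The difference for Il6 was 2.97 (SE 0.27), but the gene passed the filter through the hyperoxia arrays alone and was near background in room air, so its direction was built in and its size is uncertain. Pigr, the carrier of polymeric IgA, was at 8.06 and 7.83 against 8.98, 9.81 and 9.46 and rose by 1.47 (SE 0.23, adjusted p = 0.000247), so that the receptor was higher where Jchain and Igha were lower. Ltb, a lymphotoxin of lymphoid tissue formation that lymphocytes themselves make, fell by 1.66 (SE 0.11, adjusted p = 9.54e-07), and Cxcl12, a chemokine that holds B cells and plasma cells in their niches, fell by 1.51 (SE 0.13, adjusted p = 3.85e-06) at P29. The P14 difference of Cxcl12 was 0.32 (SE 0.13, adjusted p = 0.0507), and the effects differed by -1.83 (SE 0.18, adjusted p = 6.8e-05). Vcam1, an adhesion molecule for lymphocytes, rose by 0.90 (SE 0.10) and 1.61 (SE 0.10, adjusted p = 6.64e-07).

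Of 40 further B lineage genes, 31 were kept, and 20 were lower and 6 higher at P29 (median -0.40), against 11 lower and 5 higher at P14. Over all genes 25.5% were lower and 34.2% higher at P29, and 22.8% and 32.3% at P14. Cd180 and Stap1 are among the 31 and reached the filter level on the P29 room-air arrays alone, so their direction was built in. Ltb, Hvcn1, a proton channel of B cells (-1.40, SE 0.14), and Cnr2, a cannabinoid receptor of B cells (-1.31, SE 0.12), fell. Cd40, through which T cells help B cells and which other lung cells carry as well, was at 8.30 and 8.35 against 9.13, 9.35 and 9.19 and rose by 0.90 (SE 0.09, adjusted p = 1.71e-05). Of 24 genes of receptor signalling, 22 were kept, with 12 lower and 3 higher at P29 (median -0.38); Rac2, a GTPase of blood cells, fell by 1.95 (SE 0.08), Pik3ap1 by 1.17 (SE 0.11), Pik3cd by 0.86 (SE 0.10) and Plcg2 by 0.76 (SE 0.08).

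The general machinery of secretion, which plasma cells share with secretory epithelium, was counted separately. Of 22 genes 21 were kept, and 9 were higher and 3 lower at P29, with a median of 0.18, where 34.2% of all genes were higher and 25.5% lower. Sec11c, a signal peptidase subunit, rose by 0.95 (SE 0.09, adjusted p = 1.22e-05), Ell2, an elongation factor that promotes the secreted form of antibody messages, by 0.73 (SE 0.10), and Tram2 by 0.57 (SE 0.09). Cd28, a costimulatory receptor of T cells and plasma cells, differed by -1.72 (SE 0.13) and reached the filter level on the P29 room-air arrays alone, so the filter decided its direction.

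Markers of T and natural killer cells and of neutrophils were mostly lower too. Of 15 markers of T and natural killer cells, 14 were lower at P29 (median -1.18) and 12 were lower at P14. Over all genes 25.5% were lower at P29 and 22.8% at P14. Cd2, Cd5, Cd8b1 and Cd28 are among the 15 and reached the filter level on room-air arrays alone, so the filter built in their direction. The linear levels of the list were summed and put on the log2 scale, so that its brightest genes weigh most. This summed level was 11.43 to 11.44 in P29 room air and 10.20 to 10.32 in P29 hyperoxia. Cd3d, a chain of the T cell receptor complex, was at 8.34 and 8.54 against 6.70, 6.88 and 6.54 at P29. Of 11 neutrophil markers 9 were lower and 1 higher at P29 (median -1.48). Their summed level was 12.79 to 13.33 in room air against 11.55 to 12.00 in hyperoxia. Cxcr2, among these 11, reached the filter level on room-air arrays alone. Of 10 genes of all leukocytes 9 were lower at P29, with a median of -0.75 and differences from -1.88 to 0.22. Ptprc, the pan-leukocyte antigen CD45, fell by 0.93 (SE 0.09, adjusted p = 1.03e-05) at P29. Of the 24 genes called lower at P29, 16 had a difference further below 0 than that of Ptprc and 8 had one nearer to 0. Ptprc is only 1 of the 10 leukocyte genes, and the split depends on the gene chosen for the comparison. Of the genes kept through room air alone, Fcer2a, Cxcr5 and Fcmr are among the 16 and Cr2 among the 8. The differences between genes were not tested. Of 12 macrophage and monocyte markers 4 were higher and 4 lower at P29, and of 7 plasmacytoid dendritic cell markers 1 was higher and 1 lower. The shares over all genes at P29 were 34.2% higher and 25.5% lower.

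Tissue that can come with a dissected lung was looked at by the same lists. Of the thymus markers, Rag1, Psmb11 and Foxn1 lay below the filter, and of the 5 kept 2 were lower at P29, with a summed level of 7.97 to 8.02 in room air and 7.64 to 7.65 in hyperoxia. Glycam1 of lymph node vessels lay below the filter. Of the 7 lymph node markers listed 3 were kept, and 1 of these was lower at P29. Their summed levels were 11.06 to 11.13 in room air and 10.84 to 10.92 in hyperoxia. Most of that sum was Mfge8, at 10.92 and 11.00 in P29 room air and at 10.67 to 10.73 in P29 hyperoxia. The sum therefore cannot show whether lymph node tissue was present. Of the 3 red cell markers kept 1 was lower, where 25.5% of all genes were lower at P29. Alas2, which starts heme synthesis in erythroid cells, was at 10.72 and 9.52 in P29 room air and at 9.07, 8.43 and 8.78 in P29 hyperoxia. The part of blood left in the lung vessels, and of attached lymphoid tissue, in the B cell results was not tested.

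**Figure D5:**
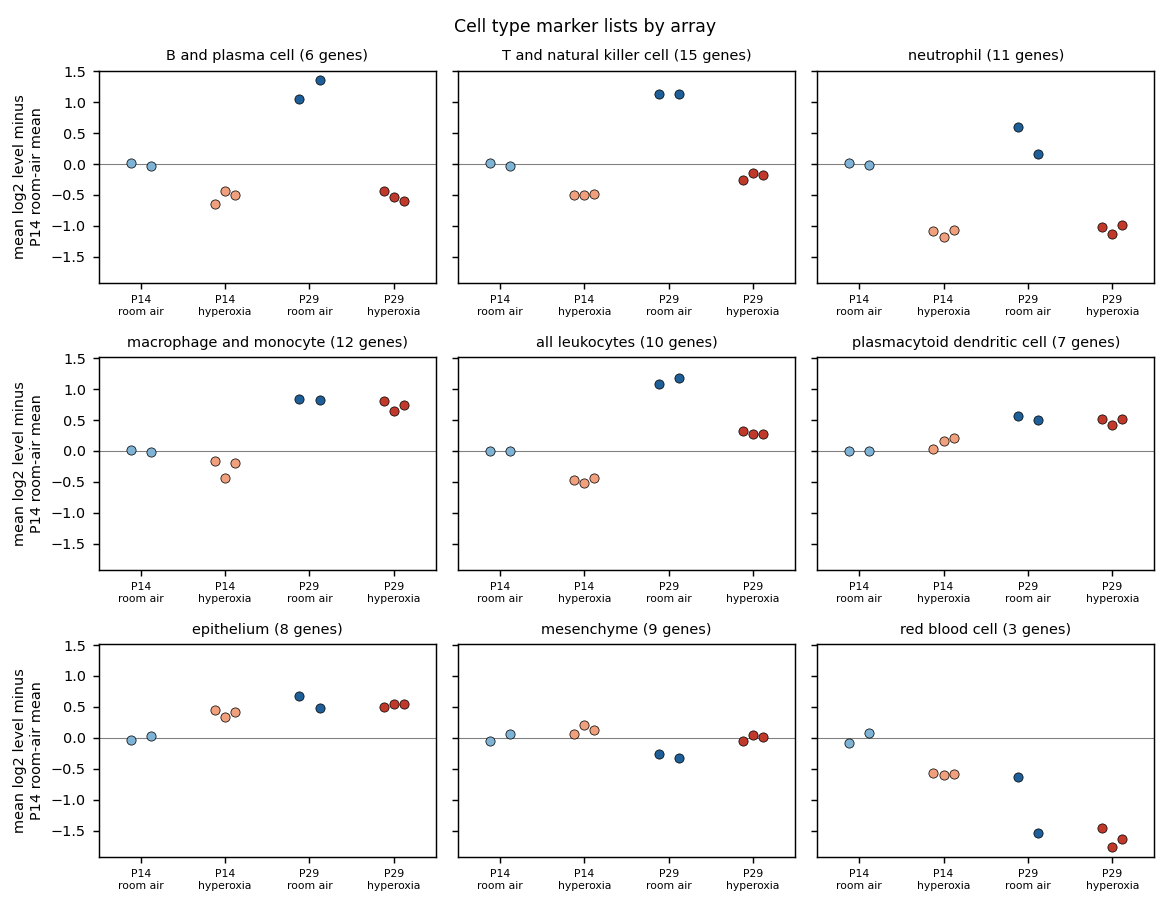
Mean log2 level of 9 marker lists on each array, as the difference from the P14 room-air mean of the list; points are arrays, and the number of genes kept is in each title. The lists of B and plasma cells and of T and natural killer cells are highest on the P29 room-air arrays and below 0 in hyperoxia at both ages; the macrophage list is about as high in both gases at P29.

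The P29 room-air arrays also differed from each other. Array 2 was the higher one for 23 of the 31 genes, by a median of 0.24, while over all genes it was higher for 50.7%. Red cell genes ran the other way, as the values of Alas2 show. Leaving out either of the arrays in turn, or any other single array, kept between 21 and 24 of the 31 genes lower at P29. With the single female P29 hyperoxia array, the P29 difference was -3.33 for Jchain and -4.17 for Igkv8-30. That fit assumes that the lone array varies like those of the other groups.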

How the data were processed

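Lung RNA was measured on 10 Affymetrix mouse arrays. The authors deposited log2 values for 45101 probe sets; the submitters' processing notes name GCRMA and Partek 6.4, with settings not given in the sources used here. These values ran from 2.51 to 15.0 and were used without further normalization, which keeps any whole-array difference between gases: the 75th percentile was 0.10 (P14) and 0.13 (P29) higher in hyperoxia on the log2 scale.

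Of the probe sets, 34958 had 1 gene symbol in the platform annotation, 932 several and 9211 none. Group means were fitted over all 10 arrays in R 4.3.3 by limma 3.58.1, using lmFit and eBayes (6 residual and 5.09 prior degrees of freedom), two-sided, with Benjamini-Hochberg adjustment over 14989 genes and a threshold of 0.05. SE is that of the contrast. The members and lists were chosen with earlier results of these data known, and roles were assigned after the values were seen. All measured members were named. Of other lists, the ligands of member receptors, up to 4 genes of smallest p at P29 and genes noted for the filter were named. Pigr, Ptprc, Cd3d, Alas2 and Xist were named outside that rule. On simulated data for the P29 contrast, run on 14989 genes, 60% of shifts of 0.5 and 97% of shifts of 1 were called. Only 100 genes were shifted by each size, and 164 genes were called in all. In the real contrast 5119 genes were higher and 3829 lower. The adjusted threshold was therefore less strict there, and the simulated shares do not carry over. The number of arrays limits the precision. Same-numbered arrays did not deviate together. Promoter windows came from RefSeq (GRCm38.p6); no array coordinates are given.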

Additional observations from a re-analysis of the deposited data

Results flagged for a closer look

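For 19 of the 31 genes the effect of hyperoxia at P29 differed from that at P14 by limma's test of the difference. Over all genes 11.6% were called below 0 and 11.0% above 0. Without the 4 genes kept through room air alone, 14 of 27 were below 0 and 1 above 0. In log2 units, P29 effect minus P14 effect, the differences of the receptor genes were -0.96 for Cd79a, -0.74 for Cd79b, -0.58 for Blk and -1.16 for Bank1. Among surface receptors they were -1.32 for Ms4a1, -0.70 for Cd22, -0.61 for Cr2, -0.75 for Fcer2a, -1.05 for Cd37 and -1.01 for Fcmr. Among chemokine and survival factor receptors they were -0.86 for Cxcr5, -0.93 for Ccr6 and -0.82 for Tnfrsf13c. Of the transcription factors, Spib differed by -1.20 and Prdm1 by 0.41. The calls of Blk, Fcer2a, Spib, Tnfrsf13c and Prdm1 were each lost when some single array was left out, that of Blk without any of 6 arrays in turn and that of Fcer2a without any of 5. Cr2, Fcer2a, Cxcr5 and Fcmr reached the filter level in room air alone. Ly6d differed by -1.37, Jchain by -3.21, Igkv8-30 by -2.72 and Mzb1 by -0.74. For Jchain, Ly6d and Tnfrsf13c the P14 effect was above 0 without being called (0.08, 0.18 and 0.22), while the P29 effect was a called fall.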

How the results depend on the processing

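The alternatives were other filters, the mean or the most variable probe set, an intensity trend with a robust fit, only the groups compared, quantile normalization, 75th percentile scaling, array weights, a replicate block, each array left out, terms for the actin gap and for Y-linked genes, and P29 hyperoxia array 2 alone. Over these and all 31 genes, 1 value changed sign after being called: Ebf1 at P29, -0.02 with the actin gap as a term. Calls were lost 24 times at P14 and 30 times at P29, 42 times for the difference of effects, 15 times for age in room air and 36 times for age in hyperoxia, and gained 22, 5, 6, 6 and 2 times. At P14, 0 members were higher and 5 lower with the actin term, 2 and 18 with 75th percentile scaling, and 1 to 3 were higher with an array left out. At P29, 1 member was higher with the scaling and with the replicate block, 0 with the actin term and 0 to 2 with an array left out. The single call above 0 for the difference became 0 without a filter, with the most variable probe set, the block, the actin or Y-linked term, or array 2 alone, and 0 to 1 with an array left out. In room air the number lower with age was 1 with only the groups compared, array weights or the Y-linked term, and 1 to 2 with an array left out. In hyperoxia it was 4 to 7 with an array left out, 4 with the Y-linked term and 3 with array 2 alone; the number higher was 5 to 8 and 3. Among the 14989 genes, 809 were higher and 578 lower at P14 and 1628 and 1277 at P29 with the actin term, where 4838 and 3411 and 5119 and 3829 stood without it. Age in room air gave 2163 and 1832 with the Y-linked term (3329 and 2866 without), and array 2 alone gave 1029 and 1059 for the difference (1642 and 1735 with all) and 1266 and 822 for age in hyperoxia (2315 and 1748). Same-numbered arrays correlated between -0.1 and 0.2, so the numbers were not taken as pairs; with the replicate block 13 members were lower at P14, 23 at P29 and 17 for the difference. Room air with 2 arrays a group limits the precision, and genes near the filter level of 5 have little signal over background.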

Other observations

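Some probe sets of Ighm were high on a single array. On P29 room-air array 2 they stood at 7.90, 7.11 and 7.04, against 5.51, 4.87 and 4.69 on P29 room-air array 1 and at most 5.41, 4.74 and 4.68 on the other arrays. The probe set used for Ighm was also higher on that array, 10.43 against 9.45, whereas Igha was lower on it, 9.64 against 10.06. The 3 probe sets named at the start enter no comparison above.

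Pigr rose with age in both gases, by 2.84 (SE 0.25, adjusted p = 5.09e-06 by limma) in room air and by 2.73 (SE 0.20, adjusted p = 6.66e-06) in hyperoxia. Tnfsf13b rose by 2.74 (SE 0.12) in room air and by 1.95 (SE 0.10) in hyperoxia. Igha rose by 3.01 (SE 0.17, adjusted p = 2.95e-07) in room air and by 0.44 (SE 0.14, adjusted p = 0.0375) in hyperoxia; its other 2 probe sets gave 4.55 and 5.04 in room air and 1.13 and 0.94 in hyperoxia.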
